A study of Mus musculus with 3 samples.

Results

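Among the NKX2-5 peaks called in embryonic mouse heart, 1290 of 9859 lay at a promoter and were found in 1 of the 2 ChIP libraries only, 488 of 4418 in the library named S1 and 802 of 5441 in the library named S4. A peak was taken when it shared no base with any peak of the other library and its midpoint lay within 1 kb of the start of a transcript in the GENCODE M1 annotation of mm9. The members were thus chosen by the peak calls themselves, that is by peak position and by a call in 1 library with none in the other, and their number, score and position are given as a description. The lists of both libraries were kept apart. For comparison, 452 promoter peaks of S1 and 434 of S4 did overlap a peak of the other library and are called promoter peaks with a partner.

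The study mapped binding of NKX2-5 in hearts of wild-type E11.5 mouse embryos of the Parkes strain, in duplicate. Fixed hearts were sonicated and immunoprecipitated with the NKX-2.5 (N-19) antibody of Santa Cruz, and both ChIP libraries share strain, stage, tissue and antibody, so that no treatment or genotype separates them. An Input library was not analysed here. The labels do not say whether S1 and S4 came from separate pools of hearts, so a difference between them may be technical.

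NKX2-5 is a homeodomain protein of the cardiac lineage that binds DNA carrying the core AAGTG and is needed for growth and maturation of heart muscle. Promoters of mammalian genes fall broadly into a CpG-rich kind, typical of genes that most cells use, such as those for ribosomes, respiration and protein folding, and a CpG-poor kind, more frequent at genes of a single tissue, such as the muscle proteins of the sarcomere. Both kinds can be open in a heart cell.

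Stretches of members that hold a motif are printed first, to show sites at the genes described below. Not all of these sites enter the motif shares given later, which count matches only in the 201 bp around a peak midpoint. Outside that window lie, for example, the printed sites at Mef2a (184 bp from the midpoint), Gata4 (290 bp), Myl3 (347 bp), Rnf44 (251 bp) and Ier2 (152 bp). So do both cores at Myh7 (1817 and 1834 bp), Esrra (170 and 209 bp) and Cox6a2 (124 and 202 bp). In each of the following the capitals mark the match, the strand shown is that of the match unless stated, and none of the stretches touches an annotated exon. They are from the NCBIM37 assembly, which is mm9. First come 2 members of S1 with the longer NKX2-5 core TNAAGTG, at Kat5, which encodes a histone acetyltransferase (chr19:5610111-5610159, minus strand, 85 bp upstream of the start), and at Mef2a, a muscle transcription factor gene (chr7:74518123-74518171, minus strand, 403 bp upstream).
Kat5, S1 only: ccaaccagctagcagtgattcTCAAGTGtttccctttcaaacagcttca
Mef2a, S1 only: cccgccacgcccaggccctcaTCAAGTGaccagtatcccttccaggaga

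The same core was found in S4 peaks at Cacnb2, a calcium channel subunit gene (chr2:14744859-14744907, plus strand, 13 bp from the peak midpoint), at Tbx5, a T-box factor gene of the heart chambers (chr5:120284128-120284176, plus strand, 24 bp from the midpoint), and at Gata4, a zinc finger factor gene of the cardiac lineage (chr14:63864781-63864829, plus strand, 290 bp from the midpoint).
Cacnb2, S4 only: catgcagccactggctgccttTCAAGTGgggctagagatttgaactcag
Tbx5, S4 only: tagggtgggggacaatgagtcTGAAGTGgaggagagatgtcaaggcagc
Gata4, S4 only: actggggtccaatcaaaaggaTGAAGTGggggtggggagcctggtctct

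A pair of such cores stood close together in members of both lists, and these stretches are printed on the plus strand, where a core on the minus strand reads CACTTNA. They lay upstream of Mef2d in S1 (chr3:87945604-87945811, 152 bp between the cores), and in S4 at Myh7, the slow myosin heavy chain gene (chr14:55607048-55607113, 10 bp between), Hspb7, a small heat shock protein gene of heart (chr4:140976132-140976294, 107 bp between), Esrra, a nuclear receptor gene of oxidative metabolism (chr19:6996680-6996767, 32 bp between), and Cox6a2, a muscle subunit of the respiratory chain (chr7:135349923-135350049, 71 bp between).
Mef2d, S1 only: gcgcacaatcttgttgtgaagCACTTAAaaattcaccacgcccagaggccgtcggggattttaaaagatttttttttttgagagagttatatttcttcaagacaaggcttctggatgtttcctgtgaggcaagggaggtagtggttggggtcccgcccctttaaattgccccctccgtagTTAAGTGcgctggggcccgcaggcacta
Myh7, S4 only: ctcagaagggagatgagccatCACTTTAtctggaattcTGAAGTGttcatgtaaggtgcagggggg
Hspb7, S4 only: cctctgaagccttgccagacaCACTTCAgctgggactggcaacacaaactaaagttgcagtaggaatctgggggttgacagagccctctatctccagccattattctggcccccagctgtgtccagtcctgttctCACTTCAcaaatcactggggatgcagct
Esrra, S4 only: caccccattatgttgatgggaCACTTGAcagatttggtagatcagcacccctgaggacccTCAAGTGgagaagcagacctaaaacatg
Cox6a2, S4 only: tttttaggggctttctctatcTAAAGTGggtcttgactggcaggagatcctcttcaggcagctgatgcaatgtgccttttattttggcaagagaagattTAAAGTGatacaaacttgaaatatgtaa

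The spaced pair GTGNTGACA, in which the last letters of an NKX2-5 core stand before the MEIS core TGACA, was rare in both lists and is shown at Myl3, a ventricular myosin light chain gene (chr9:110668533-110668583, plus strand, 102 bp upstream of the start), and at Hey2, a repressor gene downstream of Notch (chr10:30562163-30562213, plus strand, intronic, 9 bp from the peak midpoint).
Myl3, S4 only: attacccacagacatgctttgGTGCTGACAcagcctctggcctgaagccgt
Hey2, S4 only: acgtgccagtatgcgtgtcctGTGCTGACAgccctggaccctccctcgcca

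Some members held letters known from CpG-rich promoters, such as the NRF1 site GCATGCGC and the cyclic AMP response element TGACGTCA. Examples are Mrpl22, a mitochondrial ribosomal protein gene (S1, chr11:57985112-57985161, minus strand, 26 bp upstream of the start), Rnf44, a RING finger gene (S1, chr13:54789657-54789706, plus strand, 47 bp upstream), and Ier2, an immediate early gene (S4, chr8:87186768-87186817, plus strand, 42 bp upstream).
Mrpl22, S1 only: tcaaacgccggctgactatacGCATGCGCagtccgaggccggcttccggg
Rnf44, S1 only: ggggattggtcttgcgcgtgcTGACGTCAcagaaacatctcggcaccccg
Ier2, S4 only: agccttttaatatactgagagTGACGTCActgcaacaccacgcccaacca

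Most members were low-scoring peaks. The score of a peak is its p-value from the peak caller MACS after a negative log10 transform, multiplied by 10. It is relative to the background of its own library and not scaled between libraries, and no read depth is known for either. S1-only members scored between 140.01 and 758, with a median of 170, and 73.4% of them scored under 200. S4-only members scored between 140.08 and 1797, with a median of 189, and 57.5% scored under 200. Promoter peaks with a partner had higher medians, 242 in S1 and 295 in S4. A peak that is missing from a list has no value there, so the signal of the other library at a member cannot be given, and a score just under the lowest listed one cannot be told apart from no signal.

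Members were also narrower. The median one was 576 bp wide in S1 and 774 bp in S4, against 706.5 and 933 bp for promoter peaks with a partner. Only 1 S1-only member (0.205%) exceeded 1500 bp, and 15 S4-only members (1.87%) did. The widest and highest-scoring member of either list was the S4-only peak at Myh7, 5186 bp wide.

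**Figure D1:**
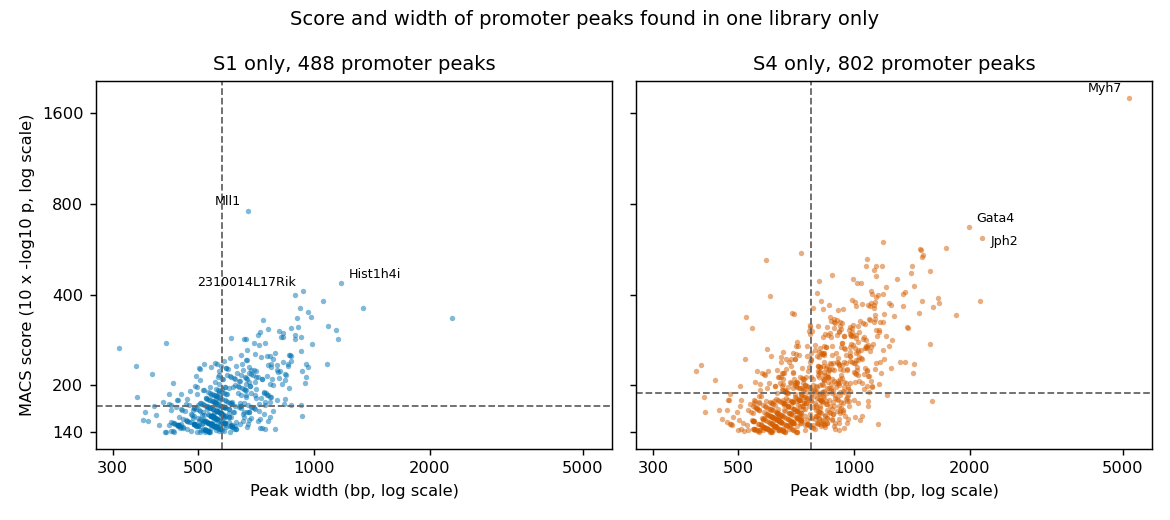
Score (MACS score without unit, log axis) against width (bp, log axis) of each S1-only (left, 488) and S4-only (right, 802) promoter peak, with dashed lines at the medians of the list. Most points crowd near the lowest listed score of 140, and the median width is 576 bp in S1 and 774 bp in S4.

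The 8 highest-scoring members of S1 lay at Mll1, a histone H3K4 methyltransferase gene, with a score of 758, the histone gene Hist1h4i with 437, 2310014L17Rik with 410, 1700012C14Rik with 400, Kat5 with 381, the zinc finger gene Zfp608 with 361, Zfp146 with its neighbour Gm5113 with 360, and Hax1, a mitochondrial regulator of cell death, with 350.02. None of these is in the heart gene lists used below. Among the 8 of S4, 4 were heart-list genes.
These were Myh7 with 1797, Gata4 with 669, Jph2, which encodes a protein that holds calcium release units together, with 615, and Myl3 with 563. The others were Sox4, a factor of outflow tract growth, with 597, Txnip, a regulator of redox state and glucose uptake, with 569.5, the divergent pair Btf3l4 and Txndc12 with 566, and Ier2 with 551.

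The position of the midpoint was part of the rule and is given as a description. The median midpoint was 5.5 bp upstream of the nearest start in S1 and 26 bp upstream in S4. In S1 42.4% of members were centred 1 to 500 bp upstream and 38.7% at 0 to 500 bp downstream, and in S4 50.4% and 33.7%. Between 500 and 1000 bp away lay 9.43% on either side in S1, and 8.10% upstream and 7.86% downstream in S4. Just inside the 1 kb limit stood an S1 peak at Plcxd1 (996 bp) and S4 peaks at Myh7 (1000 bp) and Gata4 (987 bp), while S1 peaks near Sh2d4a (1005 bp) and Mll2 (1008 bp) and S4 peaks near Gm15179 and Efnb3 (both 1001 bp) fell just outside it. The Efnb3 peak, with a score of 505, would have been among the higher members of S4.

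**Figure D2:**
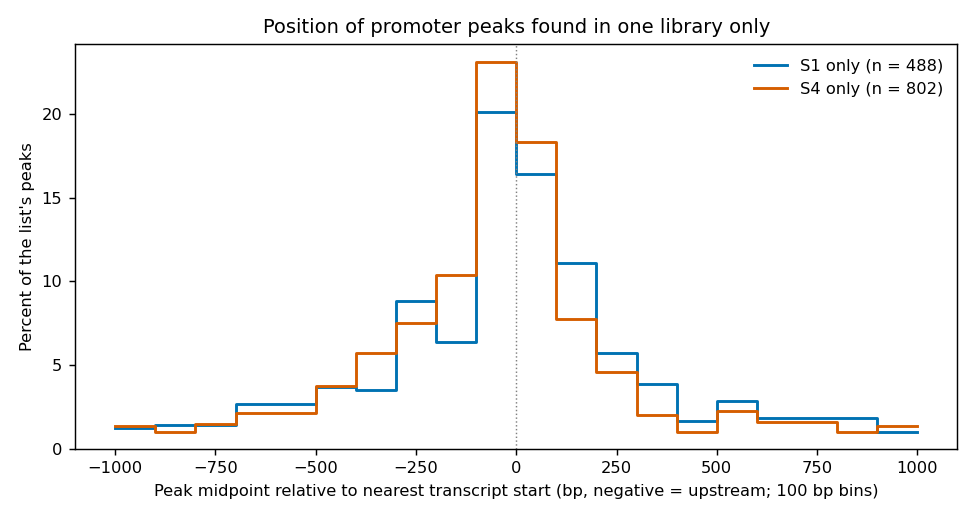
Percent of each list's peaks (y axis) by distance in bp of the peak midpoint from the nearest transcript start (x axis, negative upstream, 100 bp bins), for S1-only (488) and S4-only (802) promoter peaks. Both lists peak in the bins next to the start, with median midpoints 5.5 bp (S1) and 26 bp (S4) upstream.

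The gap to the nearest peak of the other library, which the rule also used, was wide for most members. Its median was 71964 bp for S1-only and 115368 bp for S4-only members. It was under 1 kb at 20 S1-only members (4.10%) and 29 S4-only members (3.62%), and under 100 kb at 57.4 and 46.3%. The smallest gap was 7 bp, between an S1-only and an S4-only member at the divergent genes Hnrnpul2 and Ttc9c. At the other side of the rule, the promoter peaks at Ptma in S1 and at Tnni1 in S4 counted as having a partner through an overlap of 6 and 36 bp.

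CpG content was described next, and its difference between the lists was not tested. The 500 bp to either side of a midpoint were called CpG-rich when they had at least 50% G and C and an observed over expected CpG ratio of at least 0.6. This held at 59.2% of S1-only members (289 of 488, 95% exact interval 54.7 to 63.6) and 60.0% of S4-only members (481 of 802, interval 56.5 to 63.4). Members could lie near any transcript start, while the background took the most upstream start of each gene, so the positions compared are not alike. Of these starts of all 22380 protein-coding genes, 44.1% were CpG-rich. S1-only members had a median CpG ratio of 0.678 and S4-only members one of 0.688, where all those starts had 0.549. With a promoter limit of 5 kb the shares were 39.9 and 40.2%, below that of windows centred on the starts. No background was made for windows as far as 5 kb from a start, so the direction at that limit cannot be told. In windows of 100 bp on each side the shares were 52.0% in S1 (interval 47.5 to 56.6) and 50.1% in S4 (interval 46.6 to 53.6). Both intervals held the 48.4% of all starts. Windows of 500 bp on each side, moved by up to 500 bp from all starts, were CpG-rich in 16.0 to 44.5% of cases. With that window the share at members within 1 kb was above that of any position tried. Promoter peaks with a partner were CpG-rich less often by value, in 50.9% of S1 and 50.5% of S4.

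The next question was at which genes the members lay. Within 1 kb of an S1-only midpoint started 525 of 22380 protein-coding genes (2.35%), and within 1 kb of an S4-only midpoint 846 (3.78%). Promoter peaks with a partner, of either library, lay at 435 (1.94%). The first 2 shares are the background for each class of genes below, since a class struck as often as all genes would show them. A protein-coding start lay near 94.1% of S1-only and 93.4% of S4-only members, against 86.3% and 86.6% of promoter peaks with a partner. Among 34 gene classes, 18 had a share above the background in both lists, 4 in S1 only, 4 in S4 only and 8 in neither. By their intervals fewer stood apart. The low bound of the interval lay above the background for 8 classes in S1, for 10 in S4 and for 5 in both, which were cytosolic ribosomal proteins, the respiratory chain, chaperones, cardiac transcription factors, and cardiac peptides, metabolism and stress genes. Of the 18, the others thus had an interval that held the background in at least 1 list. In S1 both cardiac classes of the 5 rested on 4 genes, with low bounds of 2.42% (transcription factors) and 2.94%. With no peak of the other library within 1 kb, transcription factors kept 4 genes in S1 and 8 in S4. The peptide, metabolism and stress class then had 3 in S1 and 4 in S4. Of the 16 classes of genes that most cells use, 12 were above the background in both lists. Intervals on shares treat genes as independent and cover counting error only, while neighbouring genes can share 1 peak.

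**Figure D3:**
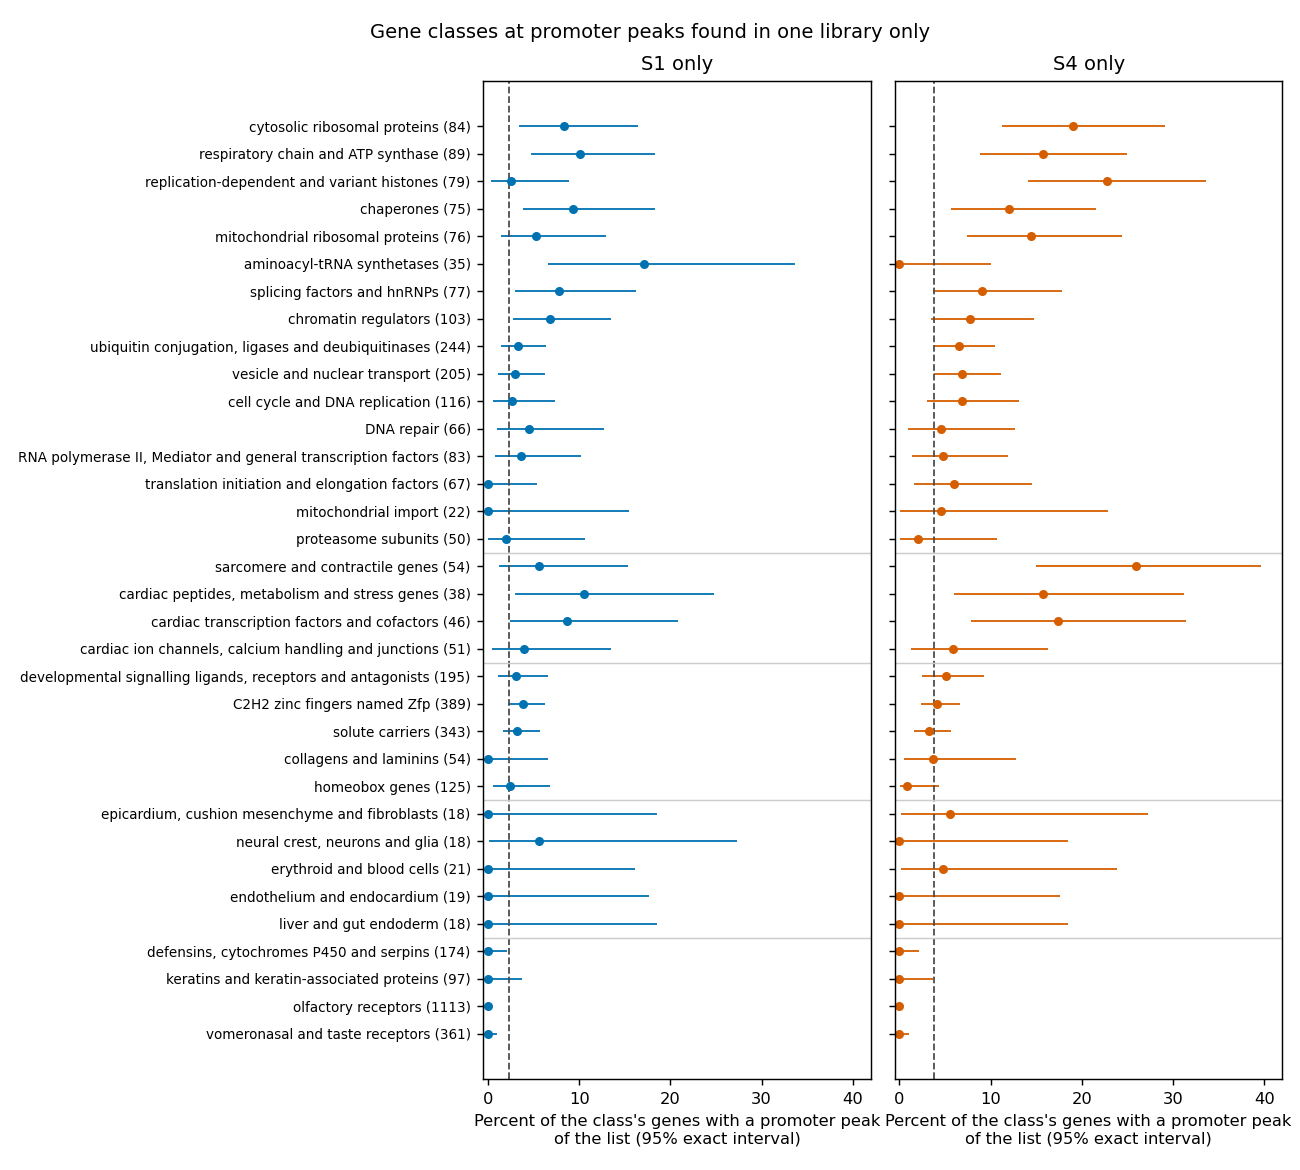
Percent of the protein-coding genes of each class (number of genes in brackets) with an S1-only (left) or S4-only (right) promoter peak within 1 kb of a start, as points with 95% exact intervals, and dashed lines at the share of all protein-coding genes (2.35 and 3.78%). Horizontal lines part the genes most cells use, heart lists, other classes, markers of other cell types and genes of restricted use, the last of which are at 0 in both lists.

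Genes for the cytosolic ribosome were struck in both lists. S1-only peaks lay at 7 of 84 (8.33%, interval 3.42 to 16.4) and S4-only peaks at 16 (19.0%, interval 11.3 to 29.1). Counts given for a score of at least 200 or for 4000 peaks are from lists made anew after both libraries were cut. There a peak whose partner was cut also counts as found in 1 library only. A score of at least 200 thus gave 191 and 434 peaks, though only 130 and 341 members reach that score. With it the ribosomal counts were 3 and 15. The highest in S1 were Rpl23 with a score of 298, Rpl9 with 276, Rpl39 with 219 and Rps18 with 182. S4 held Rpl23a with 303, Rpl10 with 268 and Rps6 with 258. Of the mitochondrial ribosome, 4 of 76 genes were in the S1 list (5.26%), led by Mrps21 with 244 and Mrpl1 with 213, and 11 in the S4 list (14.5%), led by Mrpl37 with 222 and Mrps28 with 204. The mitochondrial interval in S1, 1.45 to 12.9, held the background. With the 4000 highest-scoring peaks of each library the mitochondrial counts were 3 and 5, and with a score of at least 200 they were 2 and 2.

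The respiratory chain and ATP synthase, which make ATP in mitochondria, were above the background in both lists. S1-only peaks lay at 9 of 89 genes (10.1%, interval 4.73 to 18.3) and S4-only peaks at 14 (15.7%, interval 8.88 to 24.98). In the lists made anew from 4000 peaks both counts were 9, and in those from a score of at least 200 they were 2 and 5. The 2 of S1 are not members here, since no S1-only member of this class scored 200 or more. S1 had Uqcr10 of complex III with 187, Sdhc of complex II with 185, Ndufa9 of complex I with 182 and the ATP synthase gene Atp5g3 with 181. S4 had the ATP synthase genes Atp5h with 384 and Atp5b with 363, Cox7a2 of complex IV with 369 and Ndufs7 of complex I with 301. Only 2 genes of this class (2.25%) had a promoter peak with a partner, fewer than in either list.

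Chaperones, which fold proteins, were at 9.33% in S1 (7 of 75) and 12% in S4 (9 of 75). S1 held Cct3, a subunit of the cytosolic chaperonin, with 239, Hsp90ab1 with 217 and the pair Hspa1a and Hspa1l, which share 1 peak, with 195. S4 held Hspa4 with 331, Dnajc27 with 318, and the chaperonin genes Cct7 with 286 and Cct8 with 258. The genes for tRNA synthetases, which load tRNAs with amino acids, stood only in the S1 list, at 6 of 35 (17.1%, interval 6.56 to 33.6), on 5 peaks, where Rars2 scored 306, Eprs 224 and Gars 156. The Gars member lay 120 bp from an S4 peak with a score of 254. With no peak of the other library within 1 kb, 5 of 35 remained in S1 (14.3%). In S4 the count was 0 of 35, which allows a share of up to 8.57%, and the intervals of the lists overlapped (0 to 10.003 in S4).

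Genes of splicing, chromatin and transcription had shares above the background by value, but their S4 intervals held it, as did the interval of RNA polymerase II in S1. Splicing factors stood at 7.79% in S1 (Hnrnpul2 227, Hnrnpl 223, Hnrnpm 202, U2af2 190) and 9.09% in S4 (Srsf6 337, Sf3b4 293, Prpf4 265, Prpf38b 248). Chromatin regulators stood at 6.80% in S1, where Mll1 and Kat5 were followed by the H3K4 methyltransferase gene Setd1a with 256 and Smarcal1 with 233, and 7.77% in S4, where its relative Setd1b had 369 and the demethylase gene Kdm5a 289, before Myst1 with 269 and Chd2 with 256. RNA polymerase II and its cofactors were at 3.61% in S1 (Gtf2a1 231, Polr2i 166, Med6 151) and 4.82% in S4 (Taf6 312, Polr2j 263, Gtf2b 257, Med22 198).

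Histone genes were the class in which the intervals of the lists did not overlap, the only 1 of 34. S1-only peaks lay at 2 of 79 (2.53%, interval 0.308 to 8.85), Hist1h4i with 437 and Hist1h4j with 170, and S4-only peaks at 18 (22.8%, interval 14.1 to 33.6). These 18 genes had 14 peaks between them, because histone genes often stand head to head. The highest were Hist1h2ak and Hist1h2bn with a shared peak of 406, Hist1h4b with 397, and Hist1h2bc and Hist1h2ac with a shared peak of 345. Promoter peaks with a partner lay at 16 histone genes (20.3%). With lists of equal length, the 4000 highest-scoring peaks of each library, the counts were 2 and 14.

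Other classes of the cell's upkeep gave smaller numbers. Ubiquitin ligases and related enzymes stood at 3.28% in S1 (Rnf123 240, Fbxo40 233, Rnf44 170, Usp14 162) and 6.56% in S4 (Fbxo8 312, Fbxo47 291, Fbxl18 250, Usp39 244). Vesicle and nuclear transport genes were at 2.93% in S1 (Vps52 182, Rab40c 172, Exoc2 161, Rab34 150) and 6.83% in S4 (Sec14l1 303, Rab2b 263, Trappc1 221, Rab13 219). Cell cycle genes were at 2.59% in S1 (Orc3 306, Cdc42se1 243, Mcm7 170) and 6.90% in S4 (Cdc14a 309, Cdc26 265, E2f2 188, Cdc123 177), and DNA repair genes at 4.55% in each (among them Fanci 262 and Rad9 192 in S1, and Trp53bp1 356, Xrcc6 155 and Xrcc5 149 in S4). In S1 the intervals of all 4 classes held the background, and in S4 those of the cell cycle and DNA repair genes did. Classes were made by symbol, and Cdc42se1, among the 3 S1 genes of the cell cycle class, is not a cell cycle gene.
Genes of the proteasome class were Psma1 with 187 in S1 and Psmf1, for a regulator rather than a subunit, with 236 in S4. The class was at 2% in both lists, below either background by value. The interval, 0.0506 to 10.6 in each list, held both. Translation factors were at 0 of 67 in S1, which allows up to 4.48%, and at 4 of 67 in S4 (5.97%, Eef1g 219, Eef1b2 173, Eif4g3 151, Eif1ad 150), and mitochondrial import at 0 of 22 and 1 of 22 (Timm22 225).

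Heart genes were a small share of each list, though above the background. Over the 189 genes of the 4 heart lists, S1-only peaks lay at 13 (6.88%, interval 3.71 to 11.47) and S4-only peaks at 31 (16.4%, interval 11.4 to 22.5), and promoter peaks with a partner at 35 (18.5%). They made up 2.48% of the S1-only and 3.66% of the S4-only genes, while genes of the 16 upkeep classes made up 13.7% (interval 10.9 to 17.0) and 15.8% (interval 13.4 to 18.5), against 6.57% of all protein-coding genes. The upkeep classes hold 1471 genes and the heart lists 0.845% of all protein-coding genes. Of the upkeep genes 4.89% had an S1-only and 9.11% an S4-only peak, a lower share by value than of the heart genes in each list. Cox6a2 and Cox7a1 belong to both kinds of list.

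The sarcomere was the heart class with the most S4-only members. Peaks of S4 lay at 14 of 54 contractile genes (25.9%, interval 15.0 to 39.7) and peaks of S1 at 3 (5.56%, interval 1.16 to 15.4), so that the intervals just overlapped. After Myh7 and Myl3, S4 had the small heat shock gene Cryab with 389, the atrial light chain gene Myl7 with 381, the cardiac troponin I gene Tnni3 with 323, Tcap of the Z-disc with 267, the slow troponin T gene Tnnt1 with 266 and Myl9, a light chain gene of smooth muscle, with 209. Lower scores were found at Pdlim5 (206), the myosin chaperone gene Unc45b (201), Nebl (170), Tpm4 (169), the slow troponin I gene Tnni1 (163) and Myom1 (149). S1 had Myl3 with 171, Myl9 with 164 and the smooth muscle actin gene Acta2 with 148, of which Myl3 stood at the median of the S1-only list and the others below it.
A peak of the other library was close to 8 of these genes. The gap was 22 bp at Myl7, 710 bp at Tnnt1, 762 bp at Cryab, 771 bp at Myh7, 1115 bp at Myl3, 1181 bp at Tnni1, 1237 bp at Acta2 and 1556 bp at Myl9. With members required to have no peak of the other library within 1 kb, S4 kept 10 of 54 sarcomere genes (18.5%) and S1 3. Myh7, Tnnt1 and Tnni1 had a further promoter peak with a partner.

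Cardiac transcription factor genes were at 8.70% in S1 (4 of 46) and 17.4% in S4 (8 of 46). In the lists made anew from 4000 peaks both counts were 5, and in those from a score of at least 200 both were 4. Not all of these genes are members here, because some of their peaks have a partner in the full lists. S1 had Mef2d with 259, Mef2a with 220, Tbx3, a factor of the conduction system, with 207, and Casz1 with 149. S4 had, after Gata4, Hey2 with 235, the myocardin relative Mkl2 with 204, Prox1 with 178, Hey1 with 154, Gata5 with 150, Nkx2-5 itself with 148, and Tbx5 with 141. Gata4 had a second S4-only member with 167, centred 22 bp downstream of another of its starts. From Prox1 on these scores were below the median of the S4-only list. The Nkx2-5 member was centred 92 bp downstream of the start, and the nearest S1 peak lay 6854 bp away.

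Ion channel, calcium handling and junction genes were few. S1 had Ctnna3, an alpha-catenin of heart muscle junctions, with 205 and Cacnb2 with 160, and S4 had Jph2, Cacnb2 with 520 and the potassium channel gene Kcnj2 with 282, making 2 and 3 of 51 genes (3.92 and 5.88%). Of cardiac peptides, metabolism and stress genes, S1 had 4 of 38 (10.5%), Ppargc1a, a coactivator of mitochondrial genes, with 303, the RNA-binding protein gene Rbm24 with 223, Sgcd of the sarcoglycan complex with 154 and the enolase gene Eno3 with 149. S4 had 6 of 38 (15.8%), or 3 with lists of 4000 peaks, Hspb2 with 389 in the peak shared with Cryab, Hspb7 with 358, Esrra with 194, Cox7a1 with 170, Cox6a2 with 159 and Pgam2 with 156. Ppargc1a lay only 64 bp from a peak of S4.

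CpG-rich sequence was less frequent by value at heart members than at upkeep members. CpG-rich sequence was found at 7 of 33 S4-only peaks at heart genes (21.2%, interval 8.98 to 38.9) and at 94 of 126 at upkeep genes (74.6%, interval 66.1 to 81.9). In S1 it was 6 of 13 (46.2%, interval 19.2 to 74.9) and 48 of 67 (71.6%, interval 59.3 to 82.0). The members at heart genes scored a median of 171 in S1 and 201 in S4, and those at upkeep genes 181 and 195.

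Genes that mark other cell types had few members. Of 21 markers of blood, the S4-only list had Cd68, a macrophage gene, with 461, and of 18 of epicardium and mesenchyme Pdgfra, a growth factor receptor gene, with 166. Markers of endothelium and of liver and gut had none in either list, which allows up to 15.8 and 16.7%. Over all 93 such markers the S4 count of 2 (2.15%, interval 0.262 to 7.55) was below the background by value, but its interval held it. No member lay at any of 1745 genes of restricted use, comprising olfactory receptors, vomeronasal and taste receptors, keratins, and defensins, cytochromes P450 and serpins, which allows a share of up to 0.172% in each list.

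Families outside these kinds were closer to the background. C2H2 zinc finger genes stood at 3.86% in S1 (Zfp608 361, Zfp146 360, Zkscan5 230, Zfp62 213) and 4.11% in S4 (Zfp963 316, Zfp106 314, Zfp608 274, Zfp622 270), and solute carriers at 3.21% in both (Slc5a5 330, Slc2a1 289, Slc20a2 197 and Slc29a3 186 in S1, Slc3a2 374, Slc16a13 327, Slc19a2 199 and Slc33a1 198 in S4). Developmental signalling genes were at 3.08% in S1 (Efnb2 249.9, Smad9 225, Ephb3 160, Sema6d 146) and 5.13% in S4 (Hes6 295, Fzd2 271, Fzd8 268, Hey2 235). Of the 125 genes on the homeobox list, which was made by symbol and does not hold Prox1, 2.4% were in S1, Pax6 with 171, Pax1 with 155 and Pitx3 with 151, and 0.8% in S4, namely Nkx2-5. Collagens and laminins had none in S1, which allows up to 5.56%, and Lama4 with 327 and Lamb2 with 149 in S4.

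Genes for small RNAs were also among the starts. S4-only peaks lay at 17 of 1552 snoRNA genes (1.10%, interval 0.639 to 1.75), in 14 peaks, and S1-only peaks at 2 (0.129%, interval 0.0156 to 0.465). Some of these stand inside host genes of the ribosome or respiration, as at Rpl23a, Rpl7a, Rps3 and Atp5b. Named miRNA genes in S4 were Mir133a-2 with 376 and Mir1a-1 with 2 peaks of 167 and 141, both muscle miRNAs, Mir143 and Mir145 with a shared peak of 189.6, Mir1904 with 262, Mir483 with 208, Mir22 with 157 and Mir484 with 153. In S1 they were Mir762 with 217, Mir106b, Mir25 and Mir93 in 1 peak of 169.8 at their host Mcm7, and Mir423 with 153. An S1 peak lay 183 bp from the S4-only member at Mir133a-2 and 163 bp from that at Mir143 and Mir145. The gap was 3540 and 1996 bp at the Mir1a-1 members, 3685 bp at Mir483, and wider at Mir1904, Mir22 and Mir484.

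Genes with a promoter peak in each list were counted next. The rule left out peaks that overlap, so a gene could enter both lists only through separate peaks. The count thus cannot show whether the libraries share genes. There were 23, which is 4.38% of the S1-only genes (interval 2.80 to 6.501) where 3.78% of all genes are in the S4-only list, and 2.72% of the S4-only genes (interval 1.73 to 4.05) where 2.35% are in the S1-only list. Both intervals held the background. The 8 with the best worse rank were Dstn, an actin-severing protein gene (228 in S1 and 325 in S4), Zfp608 (361 and 274), Myl3 (171 and 563), Srl, a calcium-binding protein gene of the sarcoplasmic reticulum (274 and 211), Myl9 (164 and 209), Cacnb2 (160 and 519.9), Crip2 (159 and 244) and 4930534B04Rik (175 and 199.98).
The peaks of both libraries stood side by side at some and at separate starts in others. The gap was 176 bp at Dstn, 133 bp at Crip2 and 510 bp at Zfp608, but 218874 bp at Cacnb2 and 320200 bp at 4930534B04Rik, where each library struck another start of the gene. At 18 of the 23 genes it was under 2 kb. Besides, 6 S1-only and 13 S4-only genes also had a promoter peak with a partner.

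**Figure D4:**
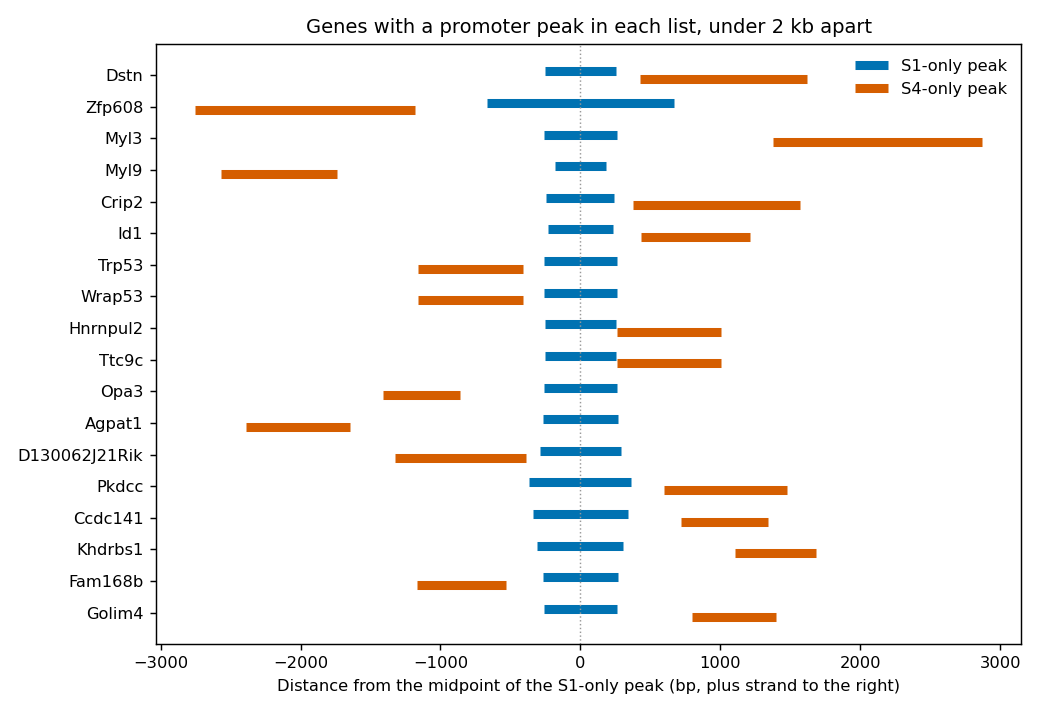
Extent of the S1-only and S4-only peak at the 18 genes that have both and where they stand under 2 kb apart, as bars in bp from the midpoint of the S1-only peak (plus strand to the right). Pairs that share a promoter, such as Hnrnpul2 and Ttc9c with a gap of 7 bp, are drawn for each gene.

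Motifs were searched as exact letters on both strands in the 201 bp around each midpoint. The background was the same window at the most upstream start of every protein-coding gene. The NKX2-5 core AAGTG was present at 42.2% of S1-only members (interval 37.8 to 46.7) and 40.9% of S4-only members (interval 37.5 to 44.4), against 31.7% of all starts and 44.7 and 44.2% of promoter peaks with a partner in S1 and S4. The longer core TNAAGTG, which includes it, was at 14.1% and 12.3%, against 6.51% of starts. The spaced pair GTGNTGACA was at 1.64% in S1 and 0.623% in S4, against 0.952% of starts, and the MEIS core TGACA at 30.9% and 29.3%, against 29.1%. AAGTG and its longer form were thus above the level of windows centred on all starts in both lists, and TGACA was within counting error of it. Windows moved from the starts were not searched for these cores singly.

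TNAAGTG or GTGNTGACA was found at 15.4% of S1-only members (interval 12.3 to 18.9) and 12.7% of S4-only members (interval 10.5 to 15.2), between the 7.41% of all starts and the 19.0 and 20.0% of promoter peaks with a partner. In windows moved by 250 or 500 bp to either side of all starts it was found in 6.56 to 11.4%. The highest of these values lies within the S4 interval and below the S1 interval. Within 25 bp of the midpoint it was at 3.69% of S1-only and 2.99% of S4-only members, against 1.63% of all starts. Within CpG-rich sequence it was at 11.8% of S1-only, 10.4% of S4-only and 3.93% of all starts, and elsewhere at 20.6%, 16.2% and 10.2%. At upkeep genes it was found in 4 of 67 S1-only peaks (5.97%, interval 1.65 to 14.6) and 19 of 126 S4-only peaks (15.1%, interval 9.33 to 22.5), and at heart genes in 1 of 13 (7.69%) and 5 of 33 (15.2%).

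Letters of other promoter factors went in both directions. The windows of all starts are centred on the most upstream start of a gene, while those of members are centred up to 1 kb from any transcript start. No moved windows were searched for these motifs, so whether position accounts for a difference was not tested. The GC box GGGCGG was below the 40% of all starts in both lists, at 30.7 and 31.2%, and at 20.8 and 21.9% of promoter peaks with a partner. The ETS core CGGAAG was at 20.3% in S1, with an interval of 16.8 to 24.1 that held the 16.9% of starts, and at 22.4% in S4 (interval 19.6 to 25.5), and the TEAD core GGAATG at 14.1% (interval 11.2 to 17.55) and 11.6% (interval 9.46 to 14.02), against 7.98%. The CCAAT box CCAAT was lower than the 27.5% of starts in S1 (19.9%) and near it in S4 (24.9%), and the TATA box TATAAA lower than 8.21% in S1 (3.07%) and S4 (6.11%). For 7 further motifs the intervals of both lists held the share of all starts. The NRF1 site GCATGCGC was at 2.05% in S1 and 2.87% in S4, against 2.58% of starts, the YY1 site AAGATGGC at 3.48 and 2.87%, against 3.05%, and the cyclic AMP response element TGACGTCA at 1.43 and 1.62%, against 1.93%. The E-box CACGTG was at 7.38 and 5.11%, against 5.56%, and the GATA site AGATAA at 5.74 and 6.98%, against 5.46%. The MEF2 site TAAAAATA was at 1.02 and 1.25%, against 0.938%, and the T-box site AGGTGTGA at 0.615 and 0.499%, against 0.563%.

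**Figure D5:**
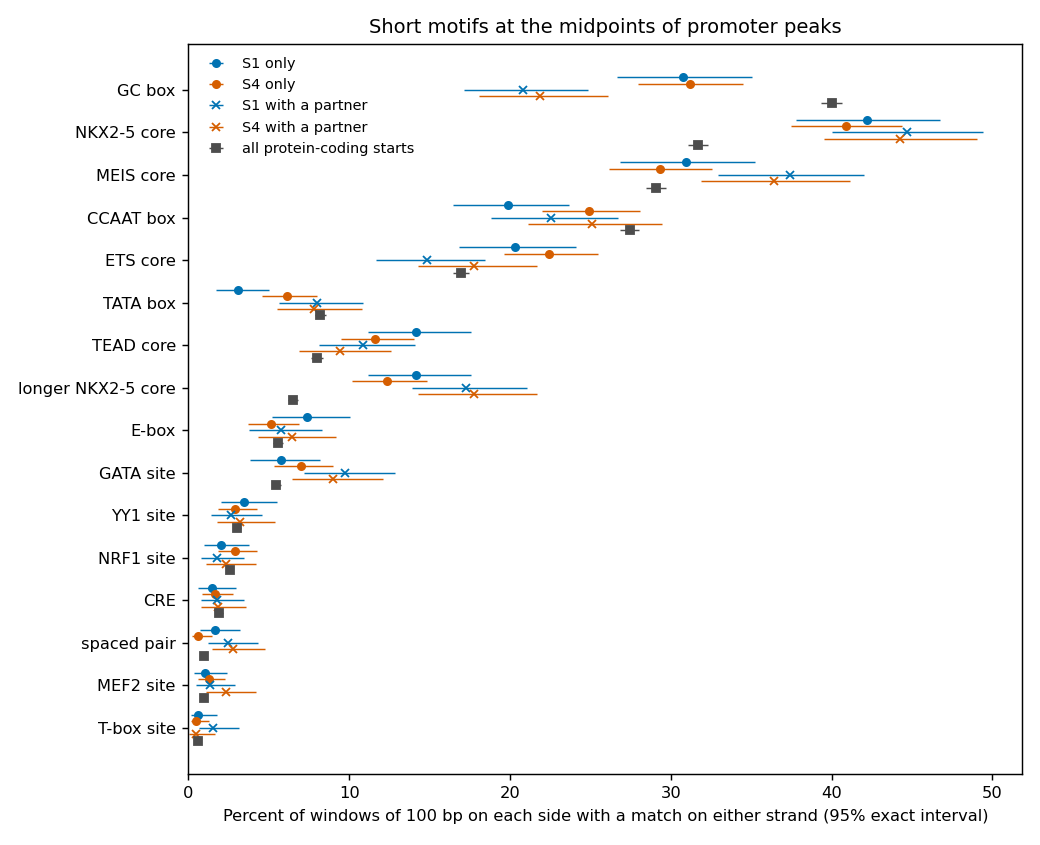
Percent of 201 bp windows with a match on either strand (x axis, points with 95% exact intervals) for each motif (y axis), in promoter peaks of S1 only, S4 only, with a partner in S1 or S4, and around all protein-coding starts. The NKX2-5 core and its longer form lie to the right of all starts in both lists, at 42.2 and 40.9% against 31.7% for the core, and the GC box lies to the left of them.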

How the data were processed

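Chromatin of E11.5 hearts was immunoprecipitated for NKX2-5 in 2 libraries, S1 and S4. The sources name CASAVA 1.4 and BOWTIE for reads, mm9 as the assembly and MACS as the peak caller. The authors deposited 1 list of peaks per library with a score for each, 10 times the negative log10 of its p-value as read from the values, and with start and end in bp as the other deposited columns. The settings and the use of the Input as control are not given in the sources used here. Depth per library is unknown, and scores carry no error.

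Peaks of 1 library without a base in common with the other, centred within 1 kb of a GENCODE M1 transcript start, were kept. Coordinates count from 1. The members, gene classes, motifs and named genes were chosen with earlier results of these data known. Named genes are the 8 highest-scoring members per list, up to 4 per class by score, all heart and other cell type genes struck, the 8 genes of both lists with the best worse rank, and those next to the limits, and some genes that the rule names are not reported here. Genes were assigned to classes by symbol. With 1 condition, and members chosen by their own calls, no test was made, and shares have exact Clopper-Pearson intervals (confidence level 0.95, counting error only, SciPy). A count of 0 is given with the limit of 3 counts. The steps were tested on simulated peaks. Alternatives were another minimum score, gap, promoter limit, set of starts, list length or window, and each library alone.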

Additional observations from a re-analysis of the deposited data

How the results depend on the processing

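Of 86 values under other settings, 62 stayed within 1.5 times a count or within the 95% interval of a share, and 24 moved. A minimum score of 200 was set on both libraries before partners were sought, so peaks whose partner scored less were added. It gave 191 S1-only and 434 S4-only promoter peaks, 4 genes in both lists, 17.56% upkeep genes in S1 and TNAAGTG or GTGNTGACA at 15.4% of S4-only peaks. A promoter limit of 5 kb gave 760 and 1247 peaks, 91 genes in both lists, CpG-rich shares of 39.9 and 40.2%, and those motifs at 21.6 and 16.8%. These CpG-rich shares are below the 44.1% of windows centred on all starts, but no background was made for windows that far from a start. A limit of 500 bp gave 7 genes in both lists and 65.1% CpG-rich in S4. Genes in both lists fell to 7 with no peak of the other library within 1 kb and to 14 with lists of 4000 peaks, where the lists held 480 and 538 members. CpG windows of 100 bp gave 52.0 and 50.1%, with intervals that both held the 48.4% of all starts. Motif windows of 25 bp gave 3.69 and 2.99%, against 1.63% of all starts. Taking each library alone, with or without a partner, gave 940 promoter peaks and 5.07% heart genes for S1, and 1236 peaks and those motifs at 15.3% for S4. Counts of peaks move with these settings by construction. The cause was not tested for the shares. The number of classes above the background in both lists ranged from 14 to 19.

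No paired analysis was possible because the libraries belong to 1 condition. The lists hold calls only, and the signal of the other library at a member is not known.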

Other observations

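The S1-only member wider than 1500 bp lay at Gm11168 (chr9:3003823-3006113), with a score of 333 and 35.1% G and C, the lowest of that list. It was chosen after its values were seen. Split by score, upkeep genes made up 12.2% of S1-only genes at peaks under 200 and 17.99% at 200 or more, and 14.8 and 17.4% of S4-only genes. Heart genes made up 1.81 and 4.32% of S1-only and 3.29 and 4.83% of S4-only genes at the same scores. LincRNA genes were struck at 2.04% of 1273 in S1 and 3.30% in S4.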
